A study of Homo sapiens with 4 samples.

Results

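The regions described here are 4406 stretches of the genome at the ends of protein-coding genes that carried the transcription factor RUNX1 and no peak of the transcription factor ETS1 in 6T-CEM cells. They were found by merging touching peaks of both RUNX1 libraries on chromosomes 1 to 22 and X and keeping the 22802 merged regions with a peak of each. Of these, 7831 had their midpoint within 1000 bp of an outer end of a protein-coding gene in RefSeq (GRCh38.p14, the assembly of hg38), and 4406 of the 7831 (56.3%) overlapped no peak of either ETS1 library. The regions were therefore selected on measured values, the presence of RUNX1 peaks and the absence of ETS1 peaks, and their RUNX1 strength and lack of ETS1 are given as a description, with no test. Away from gene ends, another 12457 RUNX1 regions had no ETS1 peak. The regions are compared with the 2791 RUNX1 gene-end regions that overlapped an ETS1 peak in both ETS1 libraries. The remaining 634 gene-end regions, with an ETS1 peak in 1 library, belong to neither set.

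6T-CEM is an established human line of T-ALL, T-cell acute lymphoblastic leukaemia. The study profiled it by CUT&Tag, in which a transposase tethered to an antibody cuts the DNA near the bound protein and the fragments so released are sequenced. There were 2 libraries with an antibody against RUNX1 and 2 with an antibody against ETS1, all from the same line, and the labels name no treatment and no genetic change. The labels do not tell whether the pair of libraries for each antibody came from separate cultures, so the spread between them may be technical.

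RUNX1 binds DNA as a complex with CBFB and recognises the letters TGNGGT, most strongly TGTGGT, through its Runt domain. ETS1 belongs to the ETS family, whose members bind sequences around GGAA and are numerous in T cells, and it is known to bind DNA together with RUNX1 at some T-cell enhancers. Promoters of widely used genes are mostly rich in CpG and often carry ETS-type letters, whereas promoters of many tissue-restricted genes are poor in CpG.

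Promoter windows of 7 genes with such a region are printed first, as examples of the letters under RUNX1 without an ETS1 peak. They are not typical: each holds a TGNGGT match, found in 41.8% of the promoter windows of regions without ETS1. PTCRA, CXCR3, PRF1 and SH2D1A are also poor in CpG (observed over expected under 0.4), as are 5.04% of those windows. RUNX3 (chr1:24964961-24965260, minus strand), MLC1 (chr22:50085826-50086125, minus strand) and TRPC1 (chr3:142723784-142724083, plus strand) were among the 15 regions with the highest RUNX1 fold. PTCRA (chr6:42915803-42916102, plus strand), CXCR3 (chrX:71618462-71618761, minus strand) and PRF1 (chr10:70602692-70602991, minus strand) were the T-cell genes with the highest fold whose window held the RUNX1 summit. SH2D1A (chrX:124346313-124346612, plus strand), which encodes the adaptor SAP, is the gene the study is named for. Each window runs from 250 bases before to 50 bases after a RefSeq gene start and is written 5′ to 3′ on the gene's strand. Capitals mark TGNGGT or CGGAAG, or their reverse complements.
RUNX3: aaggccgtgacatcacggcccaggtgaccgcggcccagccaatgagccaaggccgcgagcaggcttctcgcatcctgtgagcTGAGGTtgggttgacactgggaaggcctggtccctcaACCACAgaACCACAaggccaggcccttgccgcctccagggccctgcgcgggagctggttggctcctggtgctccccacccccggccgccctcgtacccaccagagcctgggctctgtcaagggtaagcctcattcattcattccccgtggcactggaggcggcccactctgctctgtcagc
MLC1: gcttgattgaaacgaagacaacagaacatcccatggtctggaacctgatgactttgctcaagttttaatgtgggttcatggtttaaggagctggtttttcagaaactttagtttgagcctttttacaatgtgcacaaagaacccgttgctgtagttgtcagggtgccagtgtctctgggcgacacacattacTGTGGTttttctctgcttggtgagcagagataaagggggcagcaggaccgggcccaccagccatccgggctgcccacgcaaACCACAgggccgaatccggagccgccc
TRPC1: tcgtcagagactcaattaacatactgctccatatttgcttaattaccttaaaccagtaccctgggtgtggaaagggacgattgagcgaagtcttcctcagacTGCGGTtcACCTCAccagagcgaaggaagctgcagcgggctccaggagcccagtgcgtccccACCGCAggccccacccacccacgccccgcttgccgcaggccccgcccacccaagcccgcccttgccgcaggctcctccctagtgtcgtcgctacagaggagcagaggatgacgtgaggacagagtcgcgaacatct
PTCRA: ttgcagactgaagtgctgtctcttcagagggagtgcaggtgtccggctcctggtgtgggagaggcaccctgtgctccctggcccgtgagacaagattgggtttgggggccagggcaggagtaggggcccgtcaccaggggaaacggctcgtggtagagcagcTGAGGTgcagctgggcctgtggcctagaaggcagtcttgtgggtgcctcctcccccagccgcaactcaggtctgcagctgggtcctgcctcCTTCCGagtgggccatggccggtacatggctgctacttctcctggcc
CXCR3: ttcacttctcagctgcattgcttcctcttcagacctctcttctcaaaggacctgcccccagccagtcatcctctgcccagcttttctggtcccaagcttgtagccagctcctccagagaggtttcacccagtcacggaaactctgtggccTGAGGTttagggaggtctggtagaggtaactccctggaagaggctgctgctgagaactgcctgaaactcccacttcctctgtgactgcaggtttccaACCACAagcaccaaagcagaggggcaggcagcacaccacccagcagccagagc
PRF1: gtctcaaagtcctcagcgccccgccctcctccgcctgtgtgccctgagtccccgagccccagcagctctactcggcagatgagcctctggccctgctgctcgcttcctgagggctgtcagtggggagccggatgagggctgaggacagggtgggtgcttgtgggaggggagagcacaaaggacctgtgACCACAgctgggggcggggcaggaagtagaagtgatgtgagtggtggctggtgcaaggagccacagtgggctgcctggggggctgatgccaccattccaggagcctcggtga
SH2D1A: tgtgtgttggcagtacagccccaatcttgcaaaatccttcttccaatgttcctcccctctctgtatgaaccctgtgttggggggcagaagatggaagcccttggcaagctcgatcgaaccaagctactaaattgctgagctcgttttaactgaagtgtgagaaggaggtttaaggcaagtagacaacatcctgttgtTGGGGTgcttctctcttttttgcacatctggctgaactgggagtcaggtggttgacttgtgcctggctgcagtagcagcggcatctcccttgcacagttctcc
RUNX3 held 3 matches to the RUNX letters, 2 of them to the strict form TGTGGT, MLC1 held 2, both strict, and TRPC1 held 3, none strict. PTCRA held 1 RUNX match and the only CGGAAG match among these windows, CXCR3 held 2 RUNX matches and PRF1 and SH2D1A held 1 each. The mean RUNX1 summit lay 92 bp before the start for RUNX3, 68 bp before for TRPC1, 19 bp before for PTCRA and 110.0 bp before for PRF1. It lay 54 bp inside the gene for MLC1, 47 bp for CXCR3 and 173 bp for SH2D1A. A match describes letters only and does not show that RUNX1 touched them.

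The RUNX1 libraries held 25360 and 25001 peaks and the ETS1 libraries 6082 and 5625. The median pileup at a peak summit was 75 and 71 in the RUNX1 libraries and 54 and 51 in the ETS1 libraries. Fewer ETS1 peaks were therefore available to meet a RUNX1 region, and a region without an ETS1 peak is one where none was called at this depth, which does not show that ETS1 was absent. When every library was cut to the 5611 peaks of highest fold, which removes most RUNX1 peaks and few ETS1 peaks, 349 regions remained without ETS1, 22.6% of the gene-end regions left. Of 8 T-lineage identity genes (CD3D, CD3E, CD3G, CD247, LCK, CD2, CD7 and TRAT1), 7 had a RUNX1 region at an end, and TRAT1 had none. A region without ETS1 lay at 4 of them and one with ETS1 at 5, with both at CD3E and CD7. Of all protein-coding genes, 24.2% had a region without ETS1 and 21.0% one with ETS1.

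RUNX1 binding at these regions was weaker than where ETS1 was also present. The fold over IgG, the enrichment that the authors' peak caller gave for the strongest peak of the region, had a median of 6.39 in RUNX1 library 1 and 6.15 in library 2, against 12.5 and 12.1 at regions with ETS1. Mean folds ran from 2.29 to 408.2, with the middle 50% between 4.64 and 8.88, against 8.45 to 18.8 at regions with ETS1. Regions without ETS1 were also narrower, with a median width of 805 bp against 1326 bp. The median pileup at the summit was 77 and 71 against 159 and 147, while the IgG expectation there was 11.03 and 10.48 against 11.7 and 11.1, so the sets differed in RUNX1 signal and hardly in background.

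**Figure D1:**
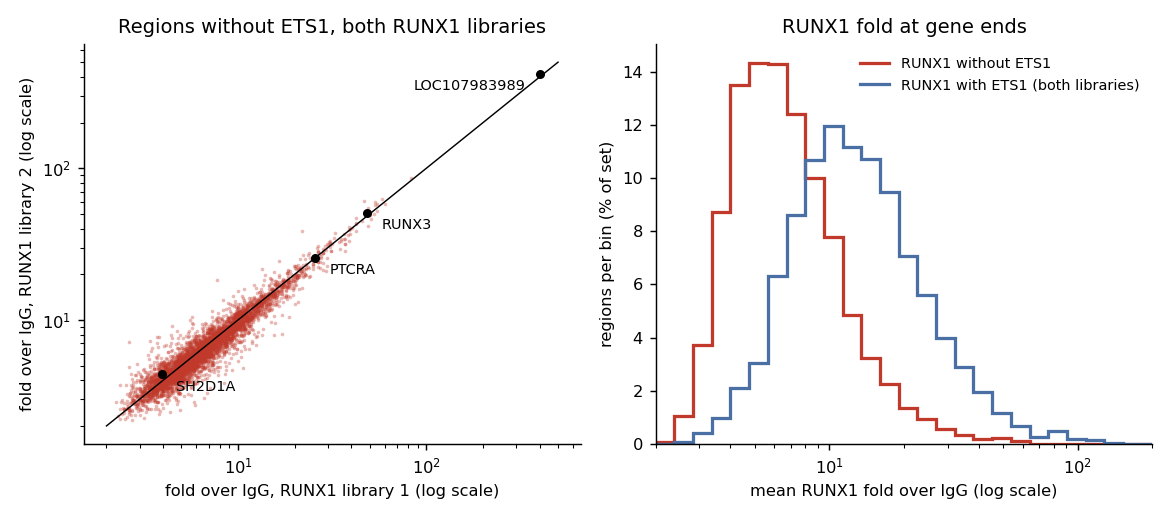
RUNX1 fold over IgG at gene-end regions without ETS1 in RUNX1 library 1 (x) and library 2 (y), 1 point per region on log axes with the line of equal values (left), and the distribution of the mean fold at regions without ETS1 (red, n = 4406) and with ETS1 in both ETS1 libraries (blue, n = 2791) as % of each set per bin (right). Points follow the line over the whole range, and the red distribution lies left of the blue one, with medians of 6.28 and 12.4.

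Both RUNX1 libraries gave nearly the same value region by region. Over the 4406 regions the folds of the libraries had a Spearman's rho of 0.935, a description since the regions share the libraries, and 97.3% of regions differed by less than 1.5-fold. The summits of both libraries lay a median of 6 bp apart. BCAR3, which encodes a signalling adaptor, was among the discordant ones, with 17.2-fold in library 1 and 8.13-fold in library 2, where the IgG expectation was 8.96 and 19.7.

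The strongest region lay at LOC107983989, an uncharacterised gene on chromosome 10 (chr10:2500601-2502290), with 399.9-fold in library 1 and 416.5-fold in library 2. Its pileup was 1777 and 1780 over an IgG expectation of 3.45 and 3.28. The next, at the uncharacterised gene LOC105375012 on chromosome 6, had 83.3-fold and 86.2-fold. No repeat or mappability filter is given in the sources used here, so values at these genes, and at KRTAP5-10 (53.1 and 60-fold), a member of a keratin-associated family of near-identical copies, are uncertain.

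RUNX3 was the strongest region at a known T-cell regulator. RUNX3, a paralog of RUNX1 that acts in CD8 T cells, had 48.2-fold and 50.6-fold in the RUNX1 libraries (mean 49.4 ± 1.65, SD, n = 2) at chr1:24963115-24966284, over its 5′ end, and the nearest ETS1 peak was 55995 bp away. Others of the 15 highest lay at genes of varied function. CTTN, which encodes the actin-binding protein cortactin, had 60.5 and 58.1-fold. SLC47A1, a transporter of organic cations, had 54.4 and 58.2-fold. MLC1, a membrane protein known from astrocytes, had 47.4 and 50.9-fold, and TRPC1, a cation channel subunit, had 50.4 and 49.1-fold. PSMB8, an immunoproteasome subunit gene, had 52.4 and 49.99-fold at its 3′ end, and a RUNX1 region with ETS1 at an end as well.

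The 5 weakest regions lay at MTR, STAM2, FBXW4, CPLANE1 and FAM98A. MTR, the methionine synthase gene, had 2.56 and 2.30-fold, STAM2, an endosomal sorting gene, had 2.41 in both libraries, and FAM98A had 2.36 and 2.22-fold, the lowest mean. Their IgG expectation, 22.1 to 35.8 in library 1, was above the 90th percentile of these regions, which was 21.4. The widest regions lay at EGFL7, which encodes a secreted vascular factor (5449 bp, 12.1 and 10.7-fold), and FUT7, the fucosyltransferase that makes selectin ligands (5004 bp, 12.5 and 12.1-fold). At the limit of the selection, the midpoint lay 997 bp from a gene end at BCAR3 and 994 bp at TPM2, and just outside it 1001 bp at DYNLRB1 and 1002 bp at PDCD1, the gene of the inhibitory receptor PD-1, where the fold was 5.07 and 5.28.

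The share of gene-end regions without ETS1 fell with RUNX1 strength. It was 87.6% (95% Wilson interval 85.9 to 89.2) of 1553 regions of mean fold under 5, 64.5% (62.9 to 66.1) of 3395 regions of fold 5 to 10, 34.6% (32.6 to 36.7) of 2056 regions of fold 10 to 20 and 17.5% (15.1 to 20.3) of 827 regions of fold 20 and up. By summit pileup, the share was 86.6% under 50 and 19.3% from 200 up. This fall describes the called peaks and was not tested. The selection used the presence and absence of peaks, and not fold or pileup. There were 145 regions of fold 20 or more where strong RUNX1 had no ETS1 peak.

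**Figure D2:**
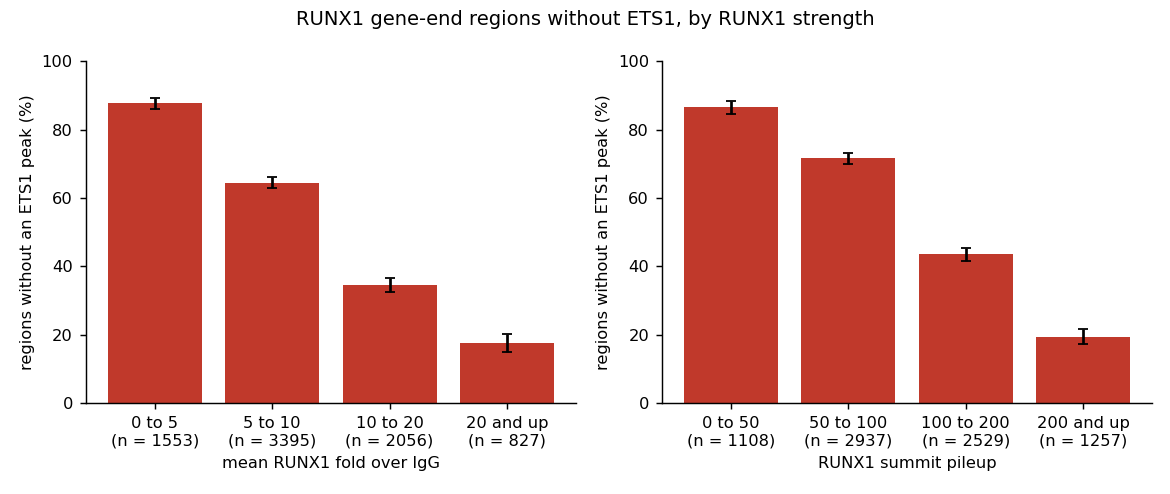
Share of RUNX1 gene-end regions without an ETS1 peak (y, %) in classes of mean RUNX1 fold over IgG (left) and of mean summit pileup (right), with 95% Wilson intervals and the number of regions under each bar. The share falls in each step, to 17.5% at fold 20 and up, and to 19.3% at a pileup of 200 and up.

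Most regions were far from any ETS1 peak. The median distance to the nearest ETS1 peak of either library was 87536 bp. At RUNX1 regions without ETS1 away from gene ends it was 53926 bp. Regions that overlap an ETS1 peak were left out by the selection, so distance follows from it in part. The nearest ETS1 peak was within 1000 bp at 68 regions (1.54%) and within 500 bp at 6, and without the 68 nearest there remained 4338 regions. MYDGF, at 28 bp, and EIF3G, a translation initiation factor gene, at 48 bp, came nearest, with 4.78 and 4.63-fold and with 4.21 and 3.50-fold. In 446 regions (10.1%) no ETS1 peak lay within 1 Mb, and at PDCD2 on the end of chromosome 6 the nearest lay 10567767 bp away.

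Regions without ETS1 lay at 5′ ends, and more often at 3′ ends than regions with ETS1. The strand of the nearest gene was known for 3536 of the 4406. Of these, 90.2% (3191) lay nearest a 5′ end, against 94.4% (2251 of 2385) of regions with ETS1, a difference of -4.14 percentage points (95% Newcombe interval -5.47 to -2.77). Intervals of this kind cover counting error over regions only. With 2 libraries per antibody, no test of these differences over samples was possible. Within classes of fold the difference kept its direction: 91.4% against 99.0% under 5, 91.0% against 96.3% at 5 to 10, 87.6% against 95.3% at 10 to 20 and 79.6% against 88.9% from 20 up.

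The 345 regions at 3′ ends included some of the strongest, although their median fold was 6.58, against 6.23 at 5′ ends. Of the 100 regions of highest fold, 76 had a known strand and 18 of them (23.7%, Wilson interval 15.5 to 34.4) lay at a 3′ end, against 9.76% of all. FBXO17, which encodes a substrate receptor of ubiquitin ligases, had 57.9 and 62.8-fold at chr19:38939696-38943789. MYO1C, an unconventional myosin gene, had 54.8 and 52.4-fold, SDC3, which encodes syndecan-3, had 50.4 and 51.3-fold, and CPAMD8 had 42.2 and 43.3-fold. For 316 of the 345, the promoter table listed no gene start within 1000 bp of the midpoint. The table is not complete, so an unlisted start or an enhancer at these places was not tested.

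At 5′ ends RUNX1 summits lay a little further inside the gene than where ETS1 was present. Both sets were chosen with midpoints within 1000 bp of a gene end, so closeness of summits to the start follows in part from the selection. The median summit lay 24 bp inside the gene in regions without ETS1 and 27 bp before the start in regions with ETS1. It was inside in 55.0% against 46.4%, and within 250 bp of the start in 74.4% against 69.3%.

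**Figure D3:**
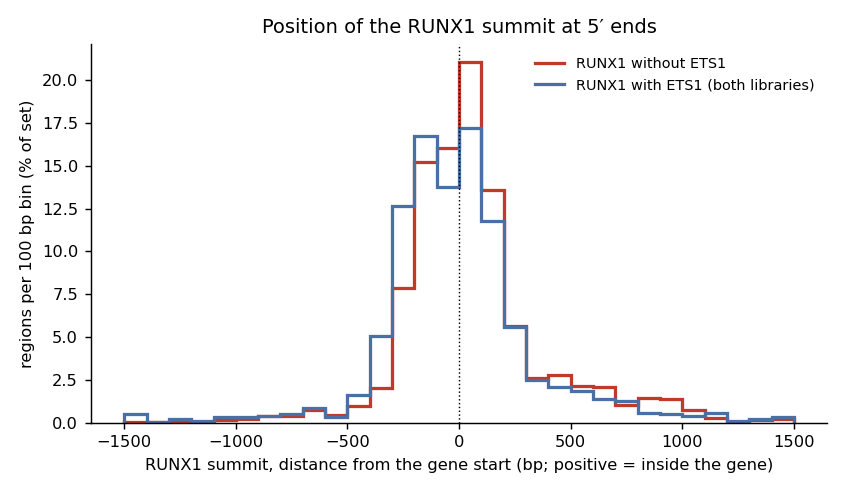
Distance of the mean RUNX1 summit from the gene start (x, bp, positive inside the gene) in 3191 regions without ETS1 (red) and 2251 with ETS1 in both libraries (blue), as % of each set per 100 bp bin (y). Both peak within 250 bp of the start, with medians of 24 bp and -27 bp.

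Places where the ends of several genes meet were less frequent without ETS1. These can be 5′ or 3′ ends, and a gene and its readthrough partner count as 2 genes. Ends of 2 or more protein-coding genes lay within 1000 bp of the midpoint in 13.4% of regions (590 of 4406), against 26.2% (730 of 2791) with ETS1, a difference of -12.8 points (-14.7 to -10.9). The shares were 14.9% against 41.0% under fold 5, 13.8% against 26.8% at 5 to 10, 9.99% against 26.7% at 10 to 20 and 9.66% against 21.5% from 20 up. Chromosome 19, the richest in genes for its length, held 6.72% of regions without ETS1 and 14.8% of those with it, a difference of -8.04 points (-9.58 to -6.56). On chromosome 19, 39.1% of the gene-end regions had no ETS1 peak, the lowest share of any chromosome, and on chromosome 13 72.0%, the highest. Under fold 5 the chromosome 19 shares were alike, 5.36% against 5.13%. They were 6.76% against 12.8% at 5 to 10, 9.14% against 15.8% at 10 to 20 and 6.90% against 17.3% from 20 up.

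The letters at the promoters were counted in 1 window per region, the listed start nearest the RUNX1 summit. Such a window overlapped 3016 of the regions without ETS1 and 2313 of those with ETS1. RUNX letters differed between them by less than counting error. TGNGGT was found, on either strand, in 41.8% of windows without ETS1 and 40.9% with ETS1 (difference 0.87 points, -1.80 to 3.53), against 41.5% of all 15812 promoters. The strict form TGTGGT was found in 9.52% and 9.04%, against 10.9% of all promoters.

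Within the regions without ETS1, RUNX letters were more frequent where RUNX1 fold was higher. TGNGGT was in 39.9% of 952 windows under fold 5, 40.4% of 1497 at 5 to 10, 46.1% of 484 at 10 to 20 and 63.9% (53.1 to 73.4) of 83 from 20 up. TGTGGT was in 8.19%, 8.82%, 12.6% and 19.3% in the same classes. RUNX letters also rose from fold 5 up in regions with ETS1, so the rise was not particular to regions without it. With ETS1, TGNGGT was in 41.4%, 37.2%, 40.7% and, from fold 20 up, 47.1% (42.7 to 51.6) of 486 windows. For TGNGGT the intervals of both sets did not overlap in that top class. TGTGGT was in 5.05%, 7.1%, 8.77% and 13.4% with ETS1. Its top-class intervals overlapped, 12.2% to 29.0% without ETS1 and 10.6% to 16.7% with ETS1. The share of CpG-poor windows (CpG observed over expected under 0.4) also moved with fold, and was 4.10%, 4.07%, 8.06% and 15.7% in the same classes without ETS1. Among CpG-rich windows without ETS1, TGNGGT was in 39.0%, 39.4%, 43.4% and, from fold 20 up, 42 of 70 (interval 48.3% to 70.7%). In CpG-rich windows with ETS1 from fold 20 up it was in 45.9% (41.3% to 50.5%), so there the intervals of both sets overlapped.

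ETS and CCAAT letters were less frequent in windows without ETS1 than in windows with it. CGGAAG was in 34.5% of windows without ETS1 against 40.9% with ETS1 (difference -6.37 points, -8.995 to -3.75), and GGAAGT, which shares GGAAG with it, in 25.5% against 30.6% (-5.07 points, -7.51 to -2.64). Of 8365 promoters that overlapped no RUNX1 region, 16.0% held CGGAAG, but 41.6% of these were CpG-poor. Among CpG-rich windows, CGGAAG was in 35.7% without ETS1 and 41.9% with ETS1, against 23.4% with no RUNX1 region. Under fold 5 CGGAAG was in 35.7% of windows without ETS1 and 55.6% with ETS1, and from fold 20 up in 28.9% and 32.5%, where the intervals overlapped. CCAAT, the letters bound by NF-Y, was in 33.2% against 44.0% (difference -10.8 points, -13.4 to -8.11). The share without ETS1 was near the 35.1% of promoters with no RUNX1 region and the 36.3% of all promoters. Under fold 5 CCAAT was in 35.5% of windows without ETS1 and 36.4% with ETS1. The TATA letters TATAAA were in 3.55% against 5.66%, and GGGCGG, the GC box, in 79.2% against 78.0%. The differences for the E box letters CANNTG, the GATA letters AGATAA and the cyclic AMP response letters TGACGTCA had intervals that included 0. So did those for the YY1 letters AAGATGGC and the NRF1 letters GCGCATGC.

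**Figure D4:**
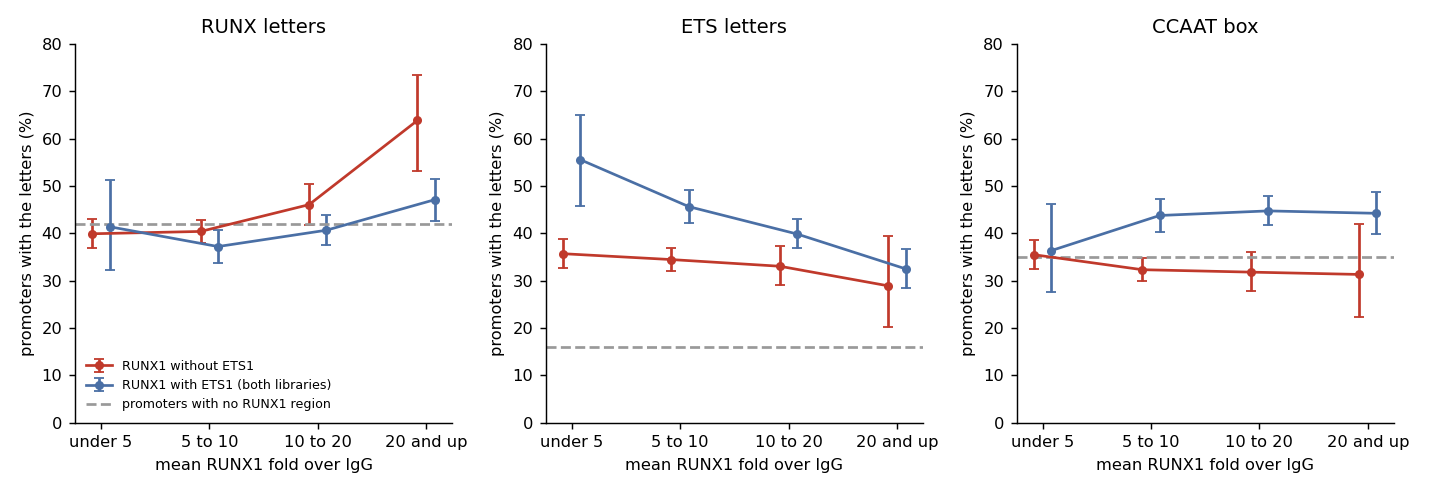
Share of promoter windows (y, %) holding TGNGGT (left), CGGAAG (middle) and CCAAT (right) by mean RUNX1 fold (x), for regions without ETS1 (red) and with ETS1 in both libraries (blue), with 95% Wilson intervals; the dashed line is the share of promoters with no RUNX1 region. Red RUNX letters reach 63.9% from fold 20 up, while red ETS and CCAAT letters lie below the blue from fold 5 to 20.

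The median CpG content of the promoters was nearly equal with and without ETS1. The observed over expected CpG of the window had a median of 0.871 without ETS1 and 0.873 with ETS1, against 0.544 at promoters with no RUNX1 region. A CpG-poor minority (under 0.4) made up 5.04% (152) of windows without ETS1 and 3.46% (80) with ETS1, against 41.6% of promoters with no RUNX1 region. These 152 windows held TGNGGT in 68.4% (60.7 to 75.3) and TGTGGT in 28.9%, against 48.0% and 17.0% of 3478 CpG-poor promoters with no RUNX1 region. Their CpG-rich counterparts held TGNGGT in 40.4% and TGTGGT in 8.48%. With ETS1, the 80 CpG-poor windows held TGNGGT in 52 (interval 54.1% to 74.6%). Among the 10 CpG-poor windows of highest fold were those of PTCRA, printed above, and IGLL1, described with the B-lineage genes, and 4 others named here after their values were seen. CD38, an ectoenzyme of activated and immature lymphocytes, had 39.4 and 36.7-fold. SPIB, an ETS-family factor of B and dendritic cells, had 31.0 and 28.5-fold, and CD27, a costimulatory receptor, had 21.3 and 22.1-fold. OR10T2, an olfactory receptor gene, was also among them with 38.7 and 33.3-fold. The windows of CD38 and SPIB held no match to TGNGGT, while those of CD27 and OR10T2 did. CD27 had a region with ETS1 at an end as well.

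By gene, 4797 of 19817 protein-coding genes (24.2%) had a region without ETS1 at an end, 4163 (21.0%) had a RUNX1 region that held ETS1, and 227 had both. At 159 genes, regions without ETS1 lay at both ends, among them CD4, MKI67 and SOCS3. Where a region served the ends of several genes it was counted for each. The gene lists below are described by counts against these backgrounds, without a test.

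T-cell receptor subunit, co-receptor and signalling genes had such a region more often than all genes, 17 of 41 (41.5%), while 12 (29.3%) had a region with ETS1. CD28, the main costimulatory receptor, had 11.2 and 12.4-fold at its 5′ end. The co-receptor genes CD8A, with 9.40 and 9.33-fold, and CD4, with 7.09 and 7.68-fold, were of middling strength. ZAP70, the kinase recruited to the receptor, had 6.65 and 6.47-fold, with an ETS1 peak 3662 bp away. The Src-family kinase gene FYN had 10.6-fold in both libraries, and BCL10, an adaptor of NF-kB signalling, was the weakest with 4.08 and 3.93-fold. CD3E and CD7 had a region with ETS1 at an end as well.

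Of 11 genes of SLAM receptors and their adaptors, 5 (45.5%) had a region without ETS1 and 0 had one with ETS1. Of all genes, 23.1% had only regions without ETS1 and 19.9% only regions with ETS1. The list is short, and the regions of CD48, LY9 and CD244 lie on the same stretch of chromosome 1. CD244, the receptor 2B4, had 19.5 and 19.2-fold, SLAMF8 had 8.64 and 8.84-fold, LY9 had 7.38 and 5.94-fold and CD48, the ligand of CD244, had 6.12 and 6.35-fold. SH2D1A, which encodes the adaptor SAP, was the weakest of the 5 with 3.92 and 4.37-fold (4.15 ± 0.32, SD, n = 2). Its region, chrX:124346479-124347102, had an IgG expectation of 20.7 and 16.4, and the nearest ETS1 peak was 128361 bp away.

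Among genes of immature thymocytes, 6 of 14 (42.9%) had a region without ETS1 and 1 (7.14%) one with ETS1. PTCRA, which encodes the pre-T-cell receptor alpha chain, had 25.6 and 25.5-fold. CD1A and CD1B, lipid-presenting molecules of cortical thymocytes, had 15.6 and 20.6-fold and 11.98-fold in both libraries. ADA, adenosine deaminase, had 6.59 and 6.77-fold, and RAG1, a subunit of the V(D)J recombinase, had 3.96 and 3.17-fold in a region it shares with TRAF6. The median fold of the 6 regions was 15.03, against 6.32 for all genes with a region without ETS1.

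T-lineage and T-ALL transcription factors were split evenly, with 12 of 42 (28.6%) for each kind of region. Of all genes, 24.2% had a region without ETS1 and 21.0% one with ETS1. Besides RUNX3, LMO2, a cofactor activated in T-ALL, had 15.7 and 17.3-fold, SATB1, a chromatin organiser of thymocytes, had 13.8 and 12.7-fold, and TCF12, an E protein, had 9.31 and 9.41-fold. ID1, ID2 and ID3, inhibitors of E proteins, had means of 10.9, 5.79 and 10.8-fold. TAL1, an oncogene of T-ALL, had 7.23 and 5.21-fold and TCF7, the factor TCF-1, had 4.47 and 4.31-fold. Of 17 genes of the NOTCH pathway, 6 (35.3%) had a region without ETS1 and 4 (23.5%) one with ETS1. The target gene HES1 had 16.5 and 19.6-fold at its 3′ end, and NOTCH2 had 10.6 and 9.22-fold. HES1 had a region with ETS1 at an end as well.

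Homing and adhesion genes had a region without ETS1 at 11 of 28 (39.3%), against 7 with ETS1. CXCR3 and CXCR4, chemokine receptors, had 23.1 and 19.7-fold and 17.2 and 17.4-fold, ITGAL, the LFA-1 alpha chain, had 20.1 and 22.6-fold, and SELPLG, the selectin ligand PSGL-1, had 17.5 and 17.9-fold. Of 26 cytokine receptor genes 9 (34.6%) had a region without ETS1, with IL6R at 29.3 and 28.8-fold. The shared gamma chain gene IL2RG had 8.19 and 8.84-fold, and a region with ETS1 at an end as well. IL9R, at 15.7 and 14.6-fold, lies in the region that X shares with Y, so its reads cannot be assigned to 1 copy. Of 20 genes of the TNF receptor superfamily and its ligands 7 had a region without ETS1, with the death receptor gene TNFRSF10A at 25.9 and 24.5-fold.

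Cytotoxic genes had a region without ETS1 at 5 of 19 (26.3%), near the 24.2% of all genes. The pore-forming protein gene PRF1 had 17.2 and 17.9-fold and CTSW had 12.1 and 14.1-fold. The granzyme genes GZMM and GZMA had 10.9 and 10.7-fold and 9.41 and 10.1-fold. Cytokine genes had 4 of 24 (16.7%), with IL10 at 22.8 and 25.2-fold. BCL2-family and caspase genes had 9 of 23 (39.1%), with a median fold of 5.43. MCL1, an inhibitor of apoptosis, had 6.59 and 5.85-fold and XIAP had 2.95 and 4.52-fold. Interferon and innate genes (8 of 39, 20.5%) and leukocyte cytoskeleton genes (6 of 27, 22.2%) had shares near the 24.2% of all genes, and MHC pathway genes had 4 of 26 (15.4%).

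Housekeeping groups were divided. Cytosolic ribosomal protein genes had a region without ETS1 at 17 of 77 (22.1%), near the 24.2% of all genes. They had one with ETS1 at 41 (53.2%), against 21.0% of all genes. Splicing factor genes had 6 of 35 (17.1%) without ETS1 and 21 with it, although SRSF5, which encodes an SR protein, was strong at 31.5 and 31.8-fold. Respiratory complex I genes, in contrast, had 15 of 36 (41.7%) without and 12 (33.3%) with ETS1, mitochondrial ribosomal protein genes 27 (35.1%) and 25 (32.5%) of 77, and proteasome genes 14 (35.9%) and 12 (30.8%) of 39. Cell cycle genes had 11 of 34 (32.4%) without and 15 (44.1%) with ETS1. Zinc finger genes, many of them on chromosome 19, had 109 of 517 (21.1%) without ETS1, also near the share of all genes, and 172 (33.3%) with ETS1.

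Genes of other lineages differed by list. Of 21 myeloid genes 1 (4.76%) had one, CEBPE, a granulocyte factor, with 8.95 and 12.03-fold. Of 15 B-lineage genes 5 (33.3%) had one, led by IGLL1, a surrogate light chain gene, with 34.7 and 29.5-fold in a region shared with DRICH1. Of 17 erythroid and megakaryocyte genes 3 (17.6%) had one, among them GP1BA, a platelet glycoprotein gene, with 14.7 and 14.3-fold. Of 20 genes of non-blood tissues 2 had one, of 55 keratin genes 5 (9.09%), and of 389 olfactory receptor genes 3 (0.771%). Those 3 were strong: OR10T2, OR1F1 with 30.6 and 32.9-fold, and OR10P1 with 23.5 and 26.9-fold.

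**Figure D5:**
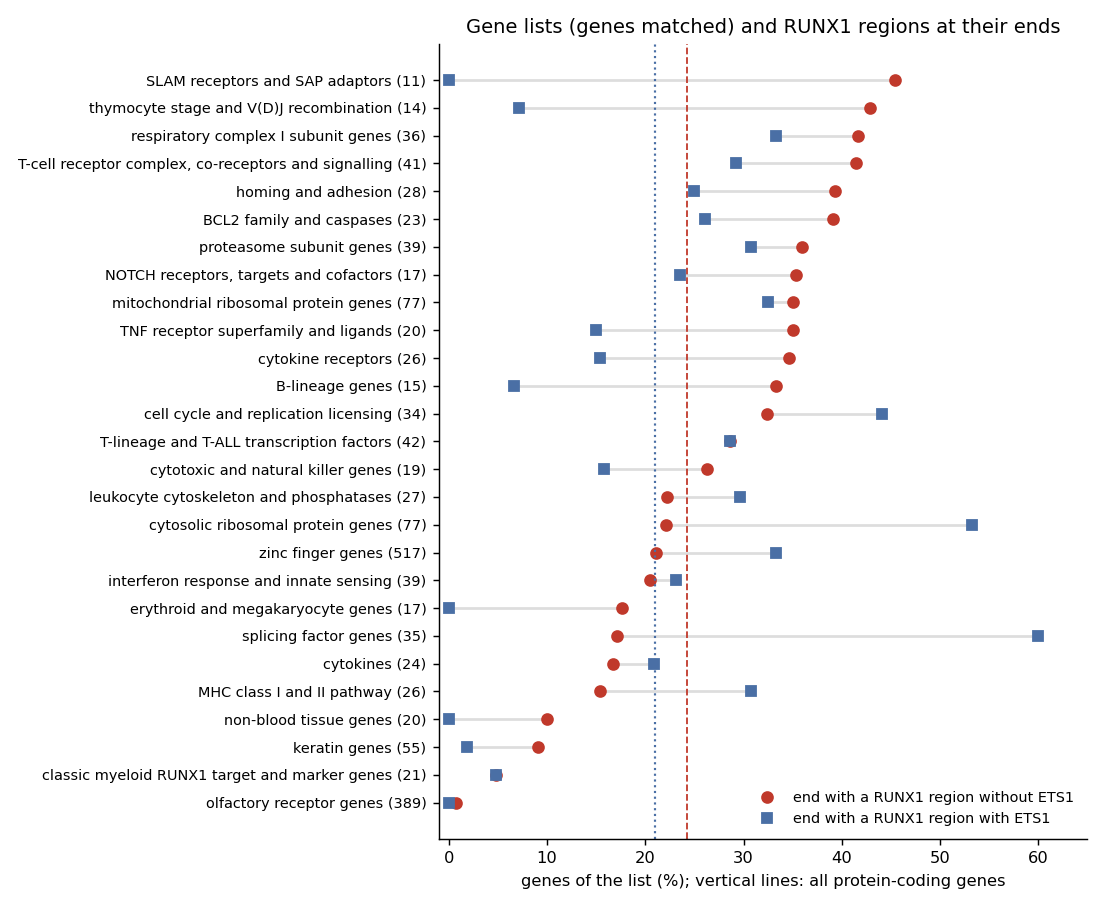
Share of the genes of each list (x, %) with a RUNX1 region without ETS1 at an end (red circles) and with a RUNX1 region that holds ETS1 (blue squares), with the number of genes in brackets; the vertical lines mark 24.2% and 21.0% of all protein-coding genes. SLAM and thymocyte genes have red circles far right of their squares, and splicing and cytosolic ribosomal protein genes the reverse. The circle of cytosolic ribosomal protein genes lies near the line of all genes.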

How the data were processed

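CUT&Tag libraries for RUNX1 and ETS1 (2 each) were deposited as peak lists. Per the submitters' processing notes, MACS3 3.0.0a6, bcl2fastq 2.17 and an unnamed version of Bowtie2 were used with hg38. Per the labels, the authors called peaks in each library against IgG. Nothing used here gives the call threshold, the handling of duplicates or a repeat filter. The deposited lists give for each peak the fold over IgG, a ratio, and p and q as −log10 values, all computed by the authors and serving here to describe, rank and filter peaks. The lists hold no read totals, so library depth is unknown. The pileup and the IgG expectation of each peak (MACS adds 1 to both) were recovered from its deposited fold and −log10 p, matching −log10 p within 0.01, and this was tested on simulated data.

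Peaks were merged where they touched, and in each library the strongest peak of a region gave its fold. An overlap of 1 bp counted as ETS1. Genes came from RefSeq (GRCh38.p14), which gave 19817 protein-coding genes after 153 listed by scaffold coordinates were left out. Strands and 300-base promoter windows came from a RefSeq promoter table that lists 15812 of these genes. Shares have 95% Wilson intervals and differences Newcombe intervals, which cover counting error only. The genes named are the 15 highest, 5 lowest and 3 widest regions, those nearest to and farthest from ETS1 and at the window limit, a few fixed genes, and the strongest of each of 27 gene lists, with further list genes chosen after their values were seen. The regions and lists were chosen with earlier results of these data known. Alternatives changed the peak threshold, peak number, window, ETS1 overlap, libraries, motif letters and windows. Python 3.11.15, numpy 2.4.6, pandas 2.3.3, scipy 1.17.1 and matplotlib 3.10.9 were used.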

Additional observations from a re-analysis of the deposited data

How the results depend on the processing

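The number of regions without ETS1 (4406) and of genes with one (4797) stayed within 1.5 times of these values in 11 of 12 alternatives each. The exception was the cut of every library to 5611 peaks of highest fold, which left 349 regions and 380 genes, a share without ETS1 of 22.6%, a median fold of 19.1, 83.0% at 5′ ends, RUNX letters in 55.2% and ETS letters in 31.0% of promoters, and a median CpG ratio of 0.861. With RUNX1 peaks of −log10 q of at least 20, the share without ETS1 was 47.6% and the median fold 7.76. A window of 2000 bp gave a share of 58.8%, and counting only ETS1 regions found in both libraries gave 64.4% and a median fold of 6.53. Leaving out each library in turn gave 4633 to 4935 regions, 5058 to 5286 genes, a share without ETS1 of 57.9% to 61.5%, a median fold of 5.94 to 6.45, 88.9% to 90.7% at 5′ ends, RUNX letters in 41.3% to 41.7%, ETS letters in 34.5% to 35.5%, and a median CpG ratio of 0.868 to 0.873. Each such value rests on fewer libraries, and a region then needs fewer peaks to enter or to stay. With other letters (TGTGGT and GGAAGT), 9.52% and 25.5% of promoters held a match, since other sequences are counted. Promoter windows wholly inside a region had a median CpG ratio of 0.882. Counting every overlapping window, chosen after the data were examined, moved none of the 3 promoter measures beyond their intervals. No paired analysis was possible because no result comes from a test over samples. The cut to equal peak numbers removes mainly RUNX1 peaks, and the effect of deeper ETS1 libraries was not tested.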
